A study of Mus musculus with 4 samples.

Results

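Ifit1, Ifit2, Ifit3, Ifit3b, Isg15, Usp18 and Rsad2 are 7 genes that type I interferon switches on. They were taken by symbol from the gene names of the deposited matrices, which gave 7 of 31253 genes, each with a single row. Their Ensembl identifiers are ENSMUSG00000034459 (Ifit1), ENSMUSG00000045932 (Ifit2), ENSMUSG00000074896 (Ifit3), ENSMUSG00000062488 (Ifit3b), ENSMUSG00000035692 (Isg15), ENSMUSG00000030107 (Usp18) and ENSMUSG00000020641 (Rsad2). They were followed by single-cell RNA-seq in 4 groups of 1 library each. These were CT26 tumour with NanoCa, CT26 tumour with mock, tumour-draining lymph node (TDLN) with NanoCa and TDLN with mock. CT26 is a mouse colon carcinoma line, and the mice were female and 4 to 8 weeks old in all groups. NanoCa is, per the series title, a lipid nanoparticle with a calcium crystal, made for immunotherapy through interferon beta. Cells were stained for CD45, the pan-leukocyte protein that Ptprc encodes, and sorted. The sources used here give no gate, strain, dose, time after treatment or number of mice. The mock libraries carry the treatment tag of untreated mice, while their treatment protocol field names NanoCa, so the ratios below hold only if names and tags are correct.

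In interferon signalling, the receptor chains Ifnar1 and Ifnar2 signal through Stat2 and Irf9, which act at interferon-stimulated response elements in promoters. The Ifit proteins bind foreign RNA or restrain translation. Isg15 is a ubiquitin-like protein that is joined to other proteins, Usp18 removes it and also dampens signalling at the interferon receptor, and Rsad2 (viperin) makes a nucleotide that stops viral RNA synthesis.

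The promoters are shown because 5 of the 6 genes with a promoter window carry the core of an interferon-stimulated response element. The windows are RefSeq sequences of build GRCm38.p6, covering the bases from upstream of a gene's start to just past it. The motif searched was GAAANNGAAA, or TTTCNNTTTC on the other strand, and matches could overlap. The stretches below are given on the gene's own strand, with the matched bases in capitals and 20 bases on either side in lower case.
Ifit1, chr19:34640765-34640833, plus strand: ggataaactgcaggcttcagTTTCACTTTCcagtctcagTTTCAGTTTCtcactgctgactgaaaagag
Ifit3, chr19:34583353-34583436, plus strand: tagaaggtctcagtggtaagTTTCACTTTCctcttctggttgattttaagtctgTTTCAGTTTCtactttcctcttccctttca
Ifit3b, chr19:34607749-34607832, plus strand: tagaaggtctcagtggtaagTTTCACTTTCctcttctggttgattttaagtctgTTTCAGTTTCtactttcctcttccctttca
Isg15, chr4:156200855-156200916, minus strand: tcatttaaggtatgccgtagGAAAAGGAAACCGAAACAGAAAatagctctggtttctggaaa
Rsad2, chr12:26456543-26456592, minus strand: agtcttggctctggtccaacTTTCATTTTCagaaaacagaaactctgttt
Ifit1, Ifit3 and Ifit3b each held 2 matches, Isg15 held 3 overlapping matches and Rsad2 held 1. The matches began 104 and 85 bases before the start of Ifit1, 156 and 122 before Ifit3, and 188 and 154 before Ifit3b. The printed stretch was the same in Ifit3 and Ifit3b, whose windows had 201 of 268 aligned bases in common (75%). Neither window of Ifit2 held the motif, and Usp18 is named without a sequence. Of all 32851 promoter windows, 3.44% held the motif, and a match is a string of letters, not a site shown to be bound.

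Cells were grouped into classes by clustering, and each class is named for the cell type whose markers its clusters express, so that T cells stands for T-like cells and so on. The tumour libraries held 167924801 (NanoCa) and 148121144 (mock) UMIs (unique molecular identifiers, counted transcripts), and the TDLN libraries 74909974 (NanoCa) and 106579362 (mock). After filtering, 10209, 8592, 10043 and 9425 cells were kept (tumour NanoCa, tumour mock, TDLN NanoCa, TDLN mock). Although the cells had been stained for CD45, 66.5% (NanoCa) and 67.8% (mock) of tumour cells and 3.33% (NanoCa) and 11.1% (mock) of TDLN cells fell into clusters low in both Ptprc and Xist. They are called Xist-low Ptprc-low cells here, and they were deep, with medians of 20024 to 57854.5 UMIs per cell. Pairs of libraries shared 120 to 179 barcodes past the filter. Leaving out the barcodes that both libraries of a tissue held ended the call of 4 of the 57 gene ratios recomputed. These were Ifit1 in tumour T cells and Ifit1, Usp18 and Rsad2 in TDLN natural killer cells. No called ratio turned round.

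A level below is the UMIs of a gene per 1000000 UMIs of the class (CPM), with an exact Poisson 95% interval. Tags come from the 3′ end of a transcript and are not scaled by length, so each gene is compared with itself. With 1 library per group there is no replicate and no test, and all intervals cover counting error alone. A ratio of NanoCa to mock is called higher or lower where the gene had at least 50 UMIs over both libraries, the exact 95% interval left out a ratio of 1, and the levels differed at least 1.5-fold. Of the last 500 bases of the Ifit3 transcript, 6.34% of 91-base stretches also occur in Ifit3b. Some reads of this pair could thus not be given to either gene, which makes their levels uncertain. Of the last 500 bases of Ifit3b, 0.0% of such stretches occur in Ifit3, so the check bears mainly on the level of Ifit3. No other pair among the 7 shared such a stretch.

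Summed over a whole library, the 7 genes stood at nearly the same level in both groups: 294.5 CPM (NanoCa) and 298.6 CPM (mock) in the tumour, and 268.9 CPM (NanoCa) and 277.7 CPM (mock) in the TDLN. The sums hide which cells they come from. In the TDLN, T cells held 32.3% of the UMIs of the 7 genes with NanoCa and 8.49% with mock, while Xist-low Ptprc-low cells held 41.4% with NanoCa and 72.6% with mock. In the tumour, monocytes and macrophages held 16.6% (NanoCa) and 17.3% (mock) of them, and the Xist-low Ptprc-low class 72.9% (NanoCa) and 73.1% (mock). The classes also differed in their share of all UMIs. In the TDLN, T cells held 45.02% of all UMIs with NanoCa and 25.1% with mock, and Xist-low Ptprc-low cells 28.8% with NanoCa and 54.5% with mock. In the tumour, the Xist-low Ptprc-low class held 90.2% of all UMIs in both libraries.

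In T cells of the TDLN, all 7 genes were higher with NanoCa than with mock, by 0.65 to 1.95 on the log2 scale. Of all 12185 genes with enough UMIs in these cells, 2.17% were called higher and 7.78% lower, and the median gene had a log2 ratio of 0.00. The class held 6343 cells with NanoCa and 5089 with mock, at median depths of 4307 and 4317 UMIs. Markers of some other cell types were lower with NanoCa in it. Of the monocyte and macrophage markers 9 of 11 with enough UMIs were lower with NanoCa (12 markers summed to 209.8 CPM with NanoCa and 340.5 CPM with mock, none at 0), as were 5 of 5 fibroblast markers (10 summed to 23.6 CPM with NanoCa and 66.4 CPM with mock, none at 0) and 6 of 6 epithelial or carcinoma markers (11 summed to 18.3 CPM with NanoCa and 44.7 CPM with mock, none at 0 with NanoCa and 1 with mock). In each of the other marker lists at most 2 markers were called lower. These included 2 of 3 NK cell markers with enough UMIs (8 summed to 16.4 CPM with NanoCa and 24.5 CPM with mock, 1 at 0 in each) and 1 of 1 erythroid marker. In the T cell, B cell and mature dendritic cell lists 1 marker each was called higher. The part of the other cell types' markers in the results for T cells was not tested.

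Ifit1, which binds RNA that lacks a mature cap, differed most. It had 29.8 CPM with NanoCa (905 UMIs) and 7.70 CPM with mock (191 UMIs), a log2 ratio of 1.95 (interval 1.72 to 2.18). Ifit3, which steadies Ifit1 on RNA in humans, had 14.6 CPM with NanoCa and 4.68 CPM with mock (log2 ratio 1.64, interval 1.34 to 1.95). Ifit3b, its near copy, had 5.39 CPM with NanoCa and 1.45 CPM with mock (log2 ratio 1.89, interval 1.37 to 2.46). These 3 lay well above Ifit2, whose human counterpart binds AU-rich RNA, and which had 13.6 CPM with NanoCa and 8.67 CPM with mock (log2 ratio 0.65, interval 0.41 to 0.90). None of their intervals reaches that of Ifit2.

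Isg15, with the most UMIs of the 7, had 106 CPM with NanoCa and 60.1 CPM with mock (log2 ratio 0.82, interval 0.73 to 0.91). Usp18, its protease, had 17.3 CPM with NanoCa and 7.42 CPM with mock (log2 ratio 1.22, interval 0.97 to 1.47). Rsad2 had 6.02 CPM with NanoCa and 3.79 CPM with mock (log2 ratio 0.67, interval 0.30 to 1.04). Isg15 and Rsad2 were thus among the lowest ratios, beside Ifit2. Ifit1, Ifit3, Ifit3b and Usp18 kept the call in 17 of 17 alternative settings. Without the 1% of cells with the most UMIs of the 7 genes, Rsad2 (log2 ratio 0.32) and Ifit2 (0.58) lost it, and Ifit2 also lost it with clusters weighted alike in both libraries (0.53) and Rsad2 with cells thinned to 1000 UMIs (0.33). At a threshold of 2-fold, Ifit2, Isg15 and Rsad2 were not called.

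The share of T cells with a UMI showed the same order. When every cell was thinned to 1000 UMIs, Ifit1 was seen in 2.63% of TDLN T cells with NanoCa and in 0.972% with mock, and Isg15 in 8.09% with NanoCa and 5.38% with mock. Without thinning, the shares for Ifit1 were 7.19% (NanoCa) and 2.52% (mock), and for Isg15 23.4% (NanoCa) and 18.2% (mock). At least 1 of the 7 genes was seen in 12.5% of thinned T cells with NanoCa and 8.15% with mock. Thinning left out 135 (NanoCa) and 48 (mock) T cells. No class here is known to lack these genes, and germinal-centre B cells had the lowest levels. In them Ifit1 was seen in 1 of 237 thinned cells with NanoCa and 0 of 371 with mock (upper limit 0.989%), and Isg15 in 0.422% with NanoCa and 2.16% with mock, at median depths of 9389.5 and 10532.5 UMIs. The Isg15 shares of T cells lay above the intervals of these cells, whereas the Ifit1 interval of the NanoCa germinal-centre cells reaches to 2.33% and overlaps the intervals of T cells with NanoCa (2.24 to 3.05%) and with mock (0.72 to 1.28%).

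**Figure D1:**
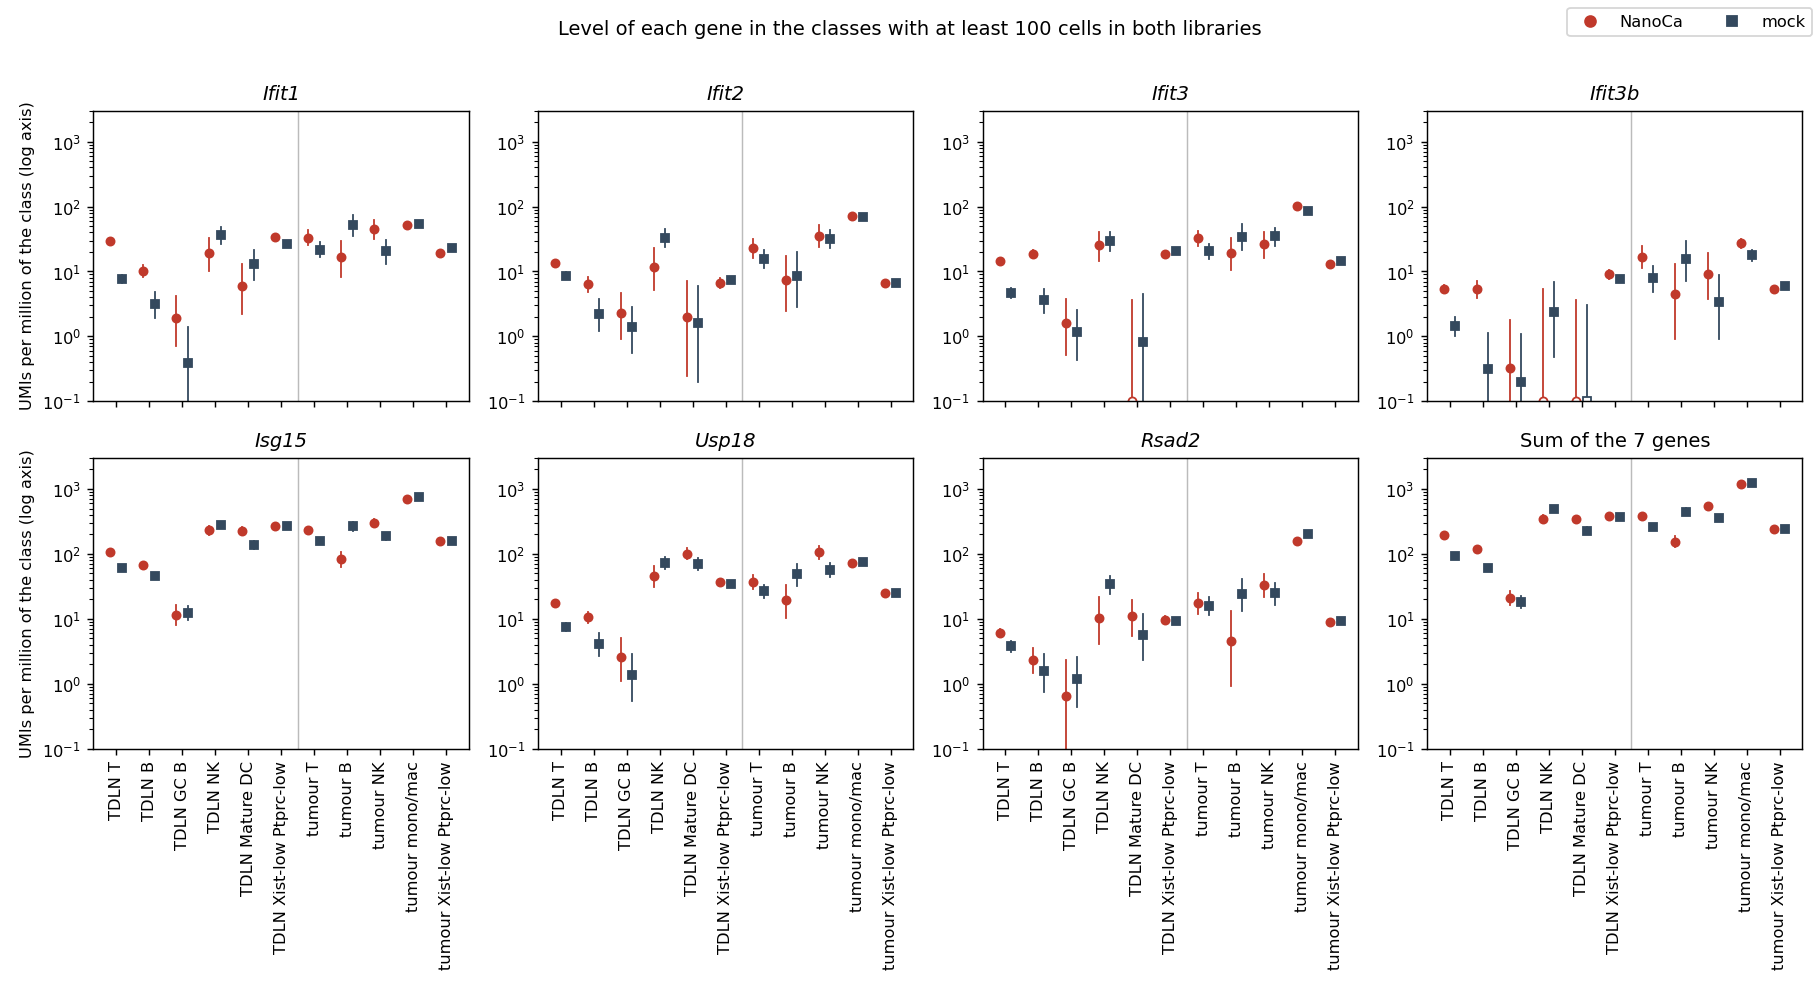
Level of each of the 7 genes and of their sum (CPM, log axis) in the 6 TDLN and 5 tumour classes with at least 100 cells in both libraries. Points are single libraries (red NanoCa, dark blue mock), bars are exact Poisson 95% intervals, and open points at the lower edge are 0 UMIs. NanoCa lies above mock for all 7 genes in TDLN T cells, for Ifit1 at 29.8 against 7.70 CPM, while the points nearly coincide in Xist-low Ptprc-low cells.

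Within the T cells, the point ratio of Ifit1 was highest in naive cells, with an unnamed Cd8-high cluster close to them. Naive CD8 cells (812 with NanoCa, 383 with mock) had 36.7 CPM of Ifit1 with NanoCa and 4.22 CPM with mock, a log2 ratio of 3.12 (interval 2.21 to 4.21). Of the 7 genes 5 were called higher there, against 2.15% of all genes, and the other 2 had under 50 UMIs. Naive CD4 cells (2359 with NanoCa, 2008 with mock) had 30.7 CPM of Ifit1 with NanoCa and 4.66 CPM with mock (log2 ratio 2.72, interval 2.24 to 3.23). All 7 genes were called higher in them, against 2.07% of all genes. The naive CD4 cells of the libraries came mostly from different T cell clusters. With NanoCa 1534 of them lay in a cluster led by Igfbp4, Pdlim4 and Khdrbs3. With mock 1368 lay in one that also had Mcpt4, Ccl2, Lyz2 and Col3a1 among its leading genes, which are genes of mast cells, myeloid cells and fibroblasts. The part of this difference in the result was not tested. The weighting of clusters in the whole T class used the clusters of all cells, not these T cell clusters.

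A Cd8-high cluster without a subset name (666 cells with NanoCa, 889 with mock) had 38.1 CPM of Ifit1 with NanoCa and 5.95 CPM with mock (log2 ratio 2.68). In it 4 of the 7 genes were called higher (1.84% of all genes), while Ifit2 stood at 8.13 CPM with NanoCa and 8.23 CPM with mock. Unnamed Cd4-high cells (1017 with NanoCa, 653 with mock) had 19.8 CPM of Ifit1 with NanoCa and 5.10 CPM with mock (log2 ratio 1.96), and 3 of the 7 genes were called higher (2.97% of all genes). By the point ratio of Ifit1 these subsets followed the naive cells, and that of the Cd8-high cluster lies inside the naive CD4 interval.

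Regulatory T cells, marked by Foxp3, had a higher mock level than the naive subsets. They had 34.6 CPM of Ifit1 with NanoCa (577 cells) and 15.2 CPM with mock (422 cells), a log2 ratio of 1.18 (interval 0.57 to 1.83). Ifit1 and Isg15 were the 2 genes called higher in them, against 4.45% of all genes. Memory-like CD8 cells (143 with NanoCa, 128 with mock) had 147 CPM of Isg15 with NanoCa and 72.5 CPM with mock (log2 ratio 1.02). Isg15 and Usp18 were called higher in them (4.41% of all genes), and Ifit1 had too few UMIs to be called.

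Activated CD4 cells (235 with NanoCa, 184 with mock) were high in both libraries. They had 37.5 CPM of Ifit1 with NanoCa and 39.9 CPM with mock, a log2 ratio of -0.09 (interval -0.73 to 0.56). Isg15 had 184 CPM with NanoCa and 152 CPM with mock in them (log2 ratio 0.27, interval -0.03 to 0.58). None of the 7 genes was called, where 3.36% of all genes were called higher. The Ifit1 interval of these cells lies below those of both naive subsets. Over these 7 subsets Ifit1 thus stood between 19.8 and 38.1 CPM with NanoCa and between 4.22 and 39.9 CPM with mock. In a mixed group of T cells (437 with NanoCa, 267 with mock), Isg15 was the gene called higher (69.1 CPM with NanoCa, 40.1 CPM with mock, 7.17% of all genes called higher).

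**Figure D2:**
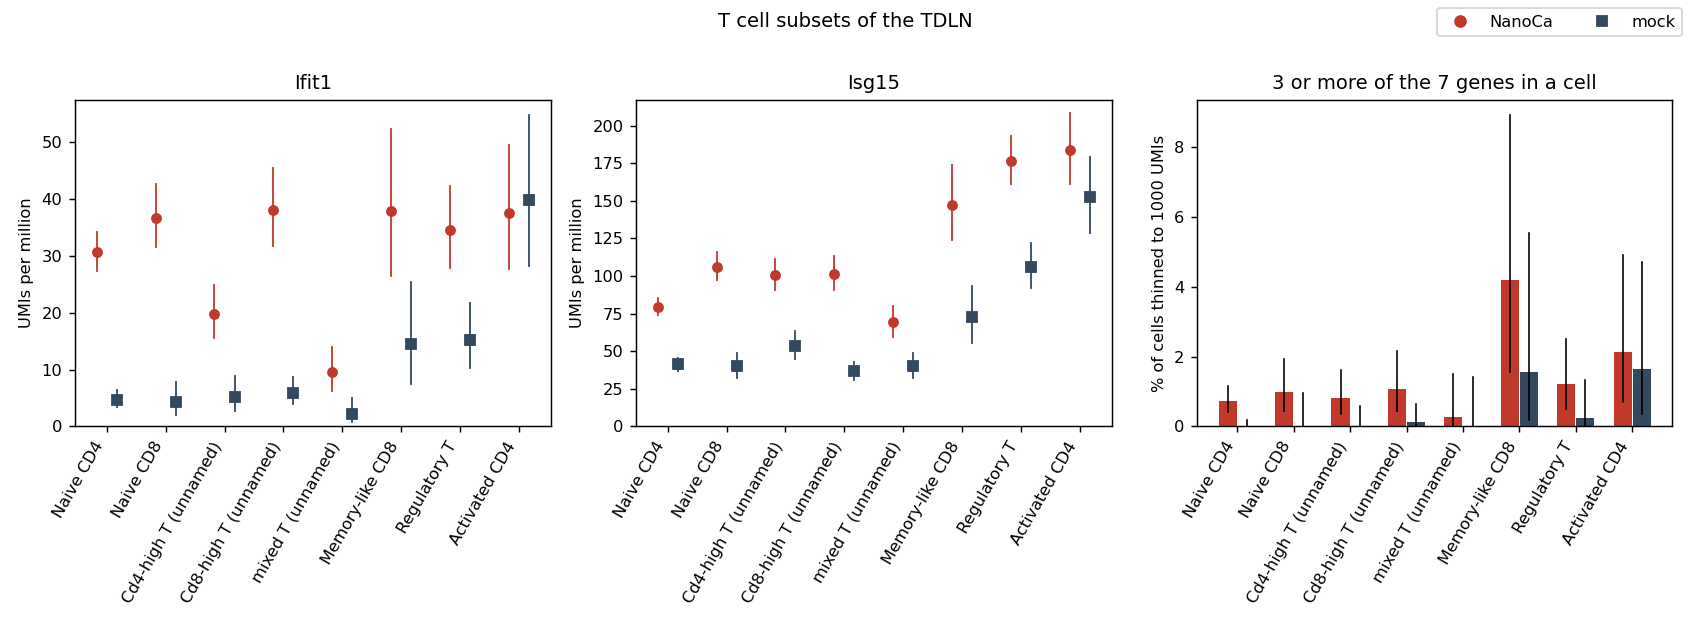
Levels of Ifit1 and Isg15 (CPM, with exact Poisson 95% intervals) and the share of cells thinned to 1000 UMIs with 3 or more of the 7 genes (with exact binomial 95% intervals) in the T cell subsets of the TDLN. Red is NanoCa, dark blue is mock. The mock level of Ifit1 is 4.66 CPM in naive CD4 cells and 39.9 CPM in activated CD4 cells, while the NanoCa levels of these subsets are 30.7 and 37.5 CPM.

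In B cells of the TDLN (2332 with NanoCa, 1633 with mock), 5 of the 6 genes with enough UMIs were higher with NanoCa, where 2.09% of all genes were higher and 7.41% lower. Ifit3 had 18.7 CPM with NanoCa (169 UMIs) and 3.64 CPM with mock (23 UMIs), a log2 ratio of 2.36 (interval 1.73 to 3.06). Ifit3b was counted 48 times with NanoCa and 2 times with mock, a log2 ratio of 4.07 with a wide interval of 2.14 to 7.16. Ifit1 had 10.1 CPM with NanoCa and 3.16 CPM with mock (log2 ratio 1.67). The ratio of Ifit3 was above that of Ifit1 in B cells and below it in T cells, and the intervals of this pair overlap in both classes. Ifit2 (log2 ratio 1.54) and Usp18 (1.35) were also higher. Isg15 had 67.3 CPM with NanoCa and 45.6 CPM with mock, and its log2 ratio of 0.56 was under the 1.5-fold threshold. Without the 1% of cells with the most UMIs of the 7 genes, Ifit1 (0.72), Ifit2 (1.18) and Ifit3b (2.86) lost the call. Thinned to 1000 UMIs per cell, Ifit1 (1.81), Ifit2 (1.26), Ifit3b (3.40) and Usp18 (0.93) lost it. Ifit3b, with no more than the 50 UMIs required, also lost it with free RNA subtracted (3.20) and without the 1 cell with the most UMIs of the 7 genes (4.01).

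Germinal-centre B cells, which divide and mutate their antibody genes, were the lowest class. Their sum of the 7 genes was 21.0 CPM with NanoCa (254 cells) and 18.0 CPM with mock (378 cells). Isg15 was the gene with enough UMIs, at 11.6 CPM with NanoCa and 12.3 CPM with mock (log2 ratio -0.09, interval -0.72 to 0.53). It was not called, where 3.87% of all genes were called higher and 4.33% lower. Other B cells of the same libraries had 121 CPM (NanoCa) and 60.6 CPM (mock) of the sum.

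Mature dendritic cells, which carry antigen to T cells, had Isg15 and Usp18 and few UMIs of the Ifit genes, at most 16 for any of them in a library. Isg15 had 224 CPM with NanoCa (119 cells) and 137 CPM with mock (143 cells), a log2 ratio of 0.71 (interval 0.41 to 1.01), and it was the 1 gene of the 7 called higher, against 5.93% of all genes (4.58% were called lower). Usp18 had 101 CPM with NanoCa and 70.2 CPM with mock (log2 ratio 0.53, interval 0.10 to 0.96). Ifit3 had 0 UMIs with NanoCa and 1 with mock, and Ifit3b had 0 in both. Of the Isg15 UMIs in this class, 2 cells held 47.8% with NanoCa and 2 held 38.1% with mock, and 1 NanoCa cell held 62 of 224. Without the 1% of cells with the most UMIs of the 7 genes the Isg15 ratio was 0.49 and not called, and thinned to 1000 UMIs per cell it turned round to -0.49.

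In natural killer (NK) cells of the TDLN, 4 of the 7 genes were lower with NanoCa, where 5.76% of all genes were lower and 7.44% higher. Ifit1 had 19.3 CPM with NanoCa (13 UMIs) and 36.3 CPM with mock (46 UMIs), Ifit2 had 11.8 CPM with NanoCa and 33.1 CPM with mock, Usp18 45.9 CPM with NanoCa and 71.8 CPM with mock, and Rsad2 10.4 CPM with NanoCa and 33.9 CPM with mock. A single cell weighed on these calls. Of the 617 UMIs of the 7 genes in 174 mock NK cells, 1 cell held 169 (27.4%), with 20093 UMIs in all against a class median of 5273 and 44 UMIs of NK markers. Without the top cell of each library Ifit1 turned round to a log2 ratio of 0.36, and Ifit2 (-0.60), Usp18 (-0.28) and Rsad2 (-1.41) were no longer called.

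Xist-low Ptprc-low cells of the TDLN showed no called gene among the 7, where 7.30% of all genes were called higher and 6.63% lower. Their sum was 387 CPM with NanoCa (334 cells) and 370 CPM with mock (1048 cells). Single cells of this class held up to 679 (NanoCa) and 897 (mock) UMIs of the 7 genes. The estimated share of free RNA, from Rhox5, Krt8 and Krt18 relative to the whole library, was 9.13% with NanoCa and 13.1% with mock in TDLN T cells, and 10.5% with NanoCa and 16.3% with mock in TDLN B cells. Subtracting it changed no call among the 7 genes in TDLN T cells, while in TDLN B cells Ifit3b lost its call (3.20) and Isg15 gained one (log2 ratio 1.76).

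In the tumour, the highest levels were in neutrophils, which were too few to compare. The sum of the 7 genes was 4006 CPM with NanoCa (89 cells) and 5101 CPM with mock (128 cells), most of it Isg15 at 3158 CPM with NanoCa and 2988 CPM with mock. Rsad2 stood at 536 CPM with NanoCa and 1242 CPM with mock in them. Mature dendritic cells of the tumour, also too few to compare, had 2052 CPM with NanoCa (41 cells, 1 of which held 53.8% of it) and 166 CPM with mock (14 cells). Of the classes large enough to compare, monocytes and macrophages were highest, with 1195 CPM (NanoCa, 998 cells) and 1253 CPM (mock, 710 cells). The median ratio of the 7 genes in this class was -0.04 on the log2 scale. Ifit3b was the gene called higher (27.1 CPM with NanoCa, 17.9 CPM with mock, log2 ratio 0.60, interval 0.23 to 0.98), against 7.63% of all genes. None was called lower, against 2.70%. Ifit3b kept its call in 10 of 17 alternative settings. It lost it, among others, without the 1% of cells with the most UMIs of the 7 genes (0.36), thinned to 1000 UMIs per cell (0.40) and with ratios centred on the median gene (0.50). Isg15 had 709 CPM with NanoCa and 753 CPM with mock in these cells, and Rsad2 159 CPM with NanoCa and 201 CPM with mock (log2 ratio -0.34, interval -0.46 to -0.21), under the threshold of size.

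Tumour T cells (719 with NanoCa, 888 with mock) had a smaller ratio than those of the TDLN for each of the 7 genes, a difference that was not tested. Ifit1 had 33.3 CPM with NanoCa and 21.6 CPM with mock (log2 ratio 0.62, interval 0.07 to 1.18), below the interval in TDLN T cells. Ifit3 (0.67, interval 0.11 to 1.24) and Ifit3b (1.11, interval 0.25 to 2.00) were also called higher, against 6.16% of all genes, and none of the 7 was lower (2.91% of all genes). Isg15 had 230 CPM with NanoCa and 156 CPM with mock (log2 ratio 0.57), just under 1.5-fold. When the clusters of the class were given the same weight in both libraries, none of these 3 kept its call (Ifit1 0.30, Ifit3 0.46, Ifit3b 0.82). The mock levels of Ifit1 and Isg15 in tumour T cells were 21.6 and 156 CPM, above those in mock TDLN T cells, and the free RNA estimate was 28.5% with NanoCa and 23.1% with mock.

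Tumour NK cells (202 with NanoCa, 271 with mock) had 301 CPM of Isg15 with NanoCa and 187 CPM with mock (log2 ratio 0.69, interval 0.41 to 0.96). Usp18 (log2 ratio 0.90, 106 CPM with NanoCa and 56.8 CPM with mock) and Ifit1 (1.14, 44.9 CPM with NanoCa and 20.3 CPM with mock) were also called higher, against 5.30% of all genes (2.34% were called lower). Ifit2, Ifit3 and Rsad2 were not called, with log2 ratios of 0.15, -0.39 and 0.43. With cells thinned to 1000 UMIs Ifit1 (0.72) and Usp18 (1.48) lost the call, without the 1% of cells with the most UMIs of the 7 genes Ifit1 did (1.45), and without doublet removal Isg15 did (0.50).

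Tumour B cells show how far 1 cell can move a class. Isg15 had 82.4 CPM with NanoCa (55 UMIs, 364 cells) and 266 CPM with mock (154 UMIs, 229 cells), a log2 ratio of -1.69 (interval -2.16 to -1.24), where 3.81% of all genes were called lower and 6.84% higher. A single mock cell held 122 of those 154 UMIs and 210 of the 260 UMIs of all 7 genes (80.8%). It had 49887 UMIs against a class median of 2044, with 32 UMIs of B cell markers and 21 of Rhox5, Krt8 and Krt18. Without the top cell of each library the ratio turned round to 0.40 and was not called.

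Xist-low Ptprc-low cells of the tumour (6785 with NanoCa, 5825 with mock) had many UMIs and no called gene among the 7, where 5.67% of all genes were called higher and 3.83% lower. The log2 ratios lay between -0.24 (Ifit1, interval -0.32 to -0.17) and 0.02 (Isg15, interval -0.01 to 0.04). The intervals of all 7 genes lie inside 1.5-fold in this class. Its clusters differed more than the class as a whole. The sum of the 7 genes was 1003 CPM with NanoCa (114 cells) and 381 CPM with mock (289 cells) in one cluster, a log2 ratio of 1.40, and 147 CPM with NanoCa (559 cells) and 247 CPM with mock (67 cells) in another, a log2 ratio of -0.75. The share of cells in these clusters thus also differed between the libraries.

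**Figure D3:**
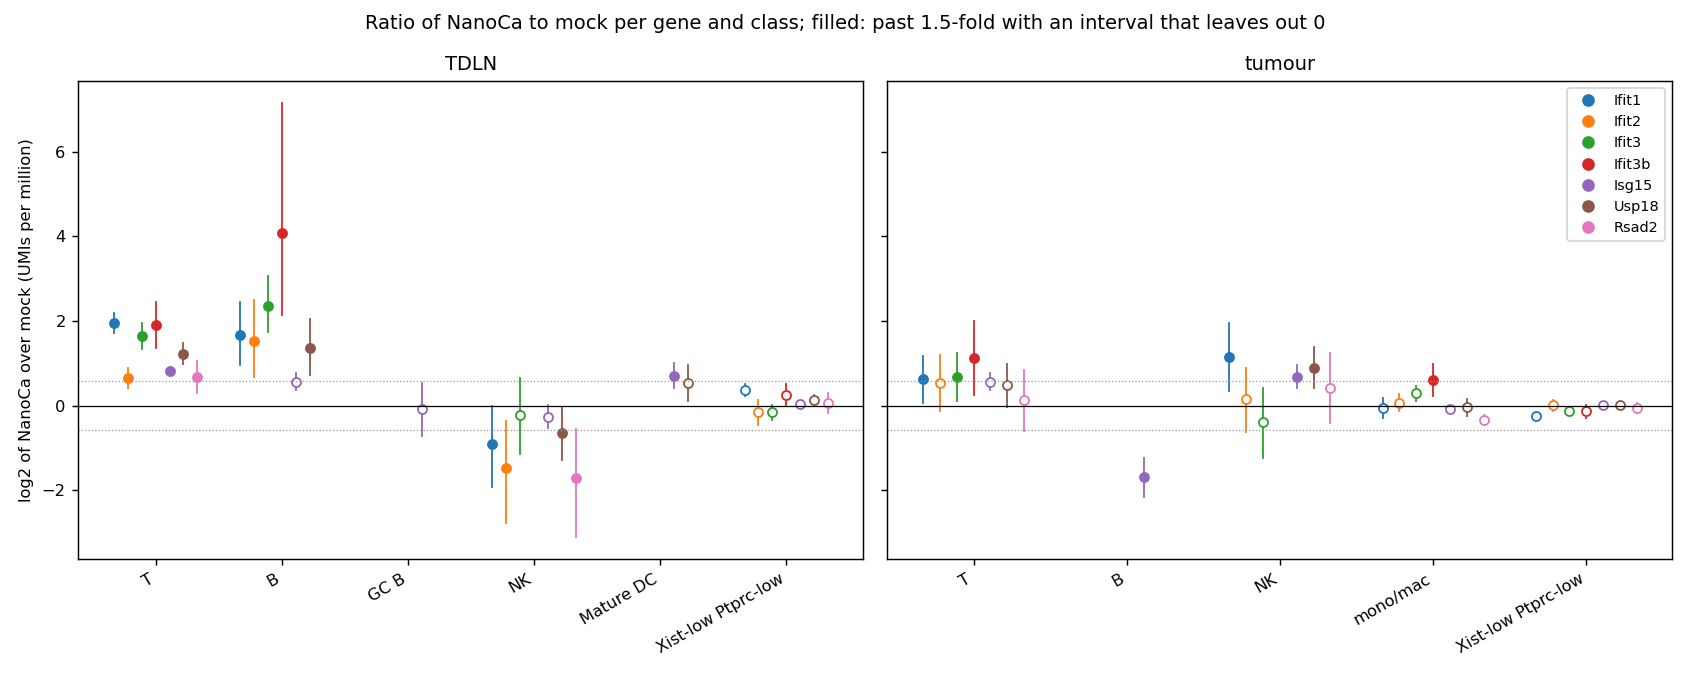
Log2 ratio of NanoCa to mock for each of the 7 genes (colours) in every compared class, TDLN and tumour, with exact conditional binomial 95% intervals; filled points are called and dotted lines mark 1.5-fold. All 7 genes are filled and above 0 in TDLN T cells (0.65 to 1.95), none is filled in Xist-low Ptprc-low cells, and the filled points below 0 are in TDLN NK cells and tumour B cells.

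**Figure D4:**
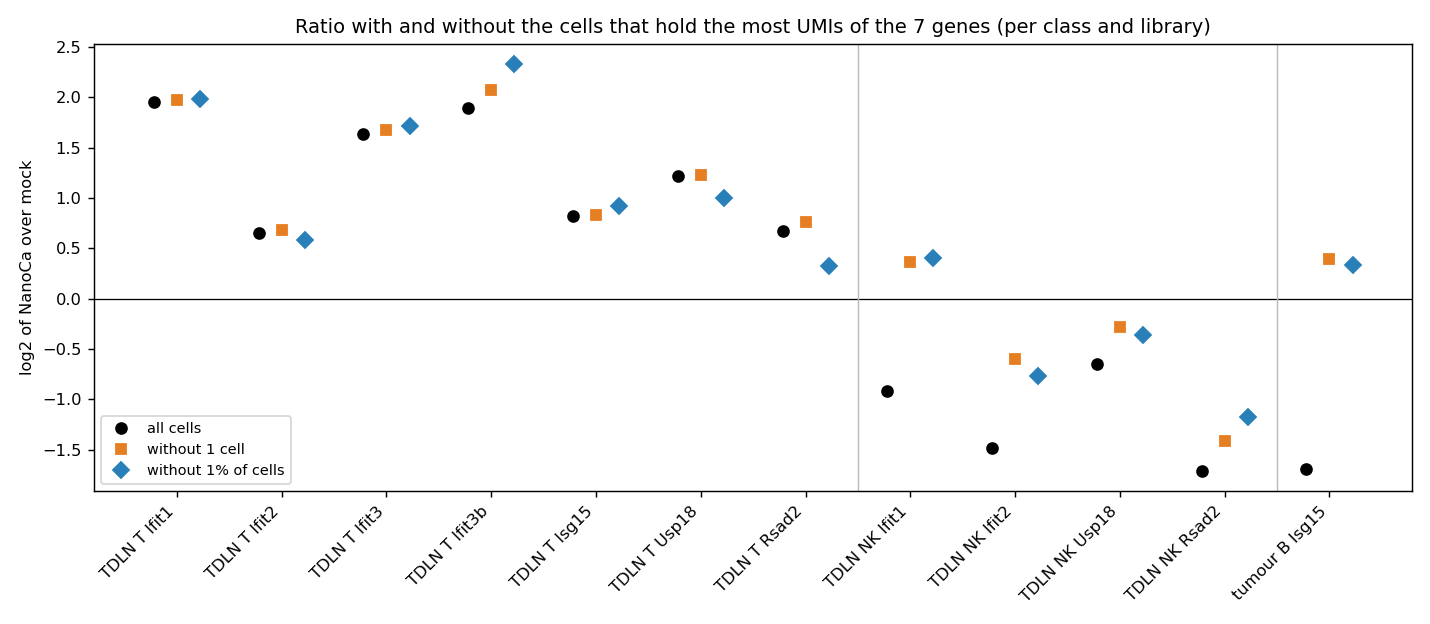
Log2 ratio of NanoCa to mock with all cells (circles), without the 1 cell of each class and library with the most UMIs of the 7 genes (squares) and without the 1% of cells with the most (diamonds). The ratios of TDLN T cells stay above 0, while Ifit1 of TDLN NK cells (-0.91 with all cells) lies at 0.36 and Isg15 of tumour B cells (-1.69) at 0.40 without 1 cell.

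A small share of cells carried 50% of the UMIs of the 7 genes. Over whole libraries, the 1% of cells with the most UMIs of the 7 genes held 30.4% (NanoCa) and 26.1% (mock) of them in the tumour, and 47.3% (NanoCa) and 44.4% (mock) in the TDLN. The deepest 1% of cells held 3.65% (NanoCa) and 3.58% (mock) of all UMIs in the tumour, and 14.9% (NanoCa) and 9.5% (mock) in the TDLN. Cells were ranked by the 7 genes for the former and by depth for the latter, so the shares are not a like comparison. Sparse counts ranked on themselves lie higher even where they follow depth. It took 277 of 10209 cells with NanoCa and 276 of 8592 with mock to reach 50% of the UMIs of the 7 genes in the tumour, and 121 (NanoCa) and 130 (mock) cells in the TDLN. The genes differed in this. In the tumour the top 1% of cells held 68.1% (NanoCa) and 60.6% (mock) of Rsad2, but 25.6% (NanoCa) and 22.4% (mock) of Isg15, the most widely detected of the 7. Rsad2 also had fewer UMIs there than Isg15 (2558 against 28466 with NanoCa), and sparser counts raise such a share. The thinned libraries, where depth no longer enters, gave 32.1% (NanoCa) and 33.5% (mock) in the tumour and 30.9% (NanoCa) and 33.6% (mock) in the TDLN. Within TDLN T cells the top 1% held 26.3% with NanoCa and 26.8% with mock, and the deepest 1% held 6.55% of all UMIs with NanoCa and 7.04% with mock. In the TDLN, the deep Xist-low Ptprc-low class was 3.33% (NanoCa) and 11.1% (mock) of cells. It held 41.4% (NanoCa) and 72.6% (mock) of the UMIs of the 7 genes, and its part in the whole-library shares was not tested.

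**Figure D5:**
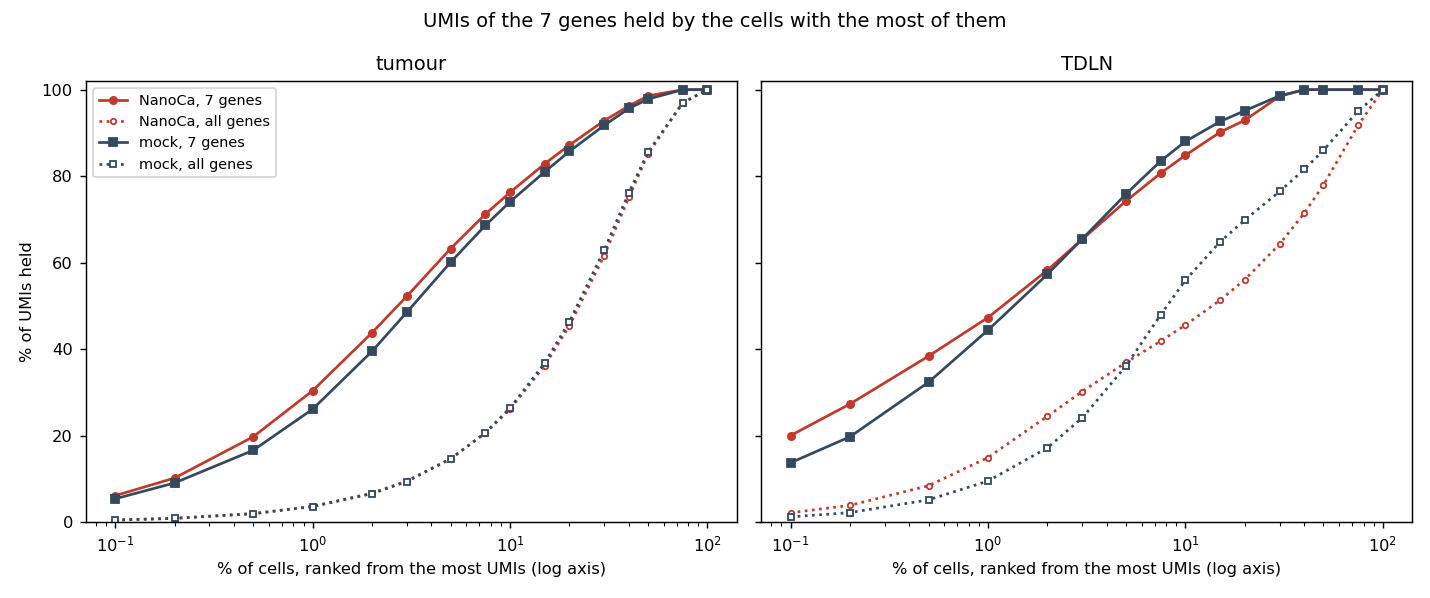
Cumulative share of UMIs (%) against the share of cells ranked from the most UMIs (log axis), for the 7 genes (filled, solid) and for all genes ranked by depth (open, dotted); red NanoCa, dark blue mock. At 1% of cells the curves of the 7 genes stand at 30.4% (NanoCa) and 26.1% (mock) in the tumour and 47.3% (NanoCa) and 44.4% (mock) in the TDLN, above the curves of all genes. Sparse counts ranked on themselves lie higher even where they follow depth, so the gap alone does not measure concentration.

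The genes were detected together in the same cells. Among TDLN T cells thinned to 1000 UMIs, 60 of 6208 with NanoCa (0.966%, interval 0.74 to 1.24%) and 7 of 5041 with mock (0.139%, interval 0.06 to 0.29%) had UMIs of 3 or more of the 7 genes. Those cells held 24.96% (NanoCa) and 9.90% (mock) of the thinned UMIs of the 7 genes in T cells. Isg15 was seen in 41.7% of the 163 Ifit1-positive T cells with NanoCa and in 24.5% of the 49 with mock, above the shares among all T cells. Among TDLN B cells 14 of 2292 with NanoCa and 0 of 1610 with mock had 3 or more of the genes, and a count of 0 allows up to 0.229% by the exact interval. In naive CD4 cells the shares were 0.725% with NanoCa and 0 of 1989 cells with mock (exact upper limit 0.185%), and in activated CD4 cells 2.14% with NanoCa and 1.64% with mock.

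In the tumour this share hardly differed between groups. It was 1.82% of thinned cells with NanoCa (178 of 9770) and 1.87% with mock (154 of 8253). Monocytes and macrophages had 6.90% with NanoCa (65 of 942) and 7.47% with mock (52 of 696), and the cells with 3 or more held 56.6% (NanoCa) and 59.4% (mock) of the thinned UMIs of the 7 genes. Tumour T cells had 2.27% with NanoCa (interval 1.30 to 3.66%) and 0.911% with mock (interval 0.39 to 1.79%), and these intervals overlap. In neutrophils 6 of 77 cells with NanoCa and 28 of 121 with mock had 3 or more of the genes.

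The 60 TDLN T cells of the NanoCa library with 3 or more of the genes were no deeper than the rest, with a median of 3984 UMIs against 4349 in the 6148 others. The other interferon-stimulated genes of a separate list summed to 14429 CPM in them and 2627 CPM in the others. Cmpk2, a nucleotide kinase gene beside Rsad2, stood at 161 CPM in them and 5.03 CPM in the others, Irf7 (a factor that amplifies interferon production) at 810 and 106 CPM, and the cytoskeletal gene Actb at 6154 and 7042 CPM. These cells were picked by the 7 genes, so the values describe them and are no test.

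Other genes of the pathway were read from lists. Of all genes in TDLN T cells, 2.17% were called higher and 7.78% lower. There, 11 of the 41 other interferon-stimulated genes with enough UMIs were called higher and 3 lower, the latter near the share over all genes. The median log2 ratio of the 41 was 0.35 against 0.00 for all genes. Among the higher ones were Oas2, which makes the activator of the RNA-cutting enzyme RNase L (log2 ratio 1.44), Slfn5 (1.10), Rtp4 (1.09) and Cmpk2 (1.29, 6.41 CPM with NanoCa and 2.62 CPM with mock). Ifitm3, a membrane protein that blocks virus entry, was lower (53.2 CPM with NanoCa and 126 CPM with mock, log2 ratio -1.24), and so was Oasl2 (-0.70). The mock library had 1368 T cells, and the NanoCa library 244, in the cluster with Lyz2, Ccl2, Ccl8, Col3a1 and Timp1 among its leading genes, and the part of this, of the other cell types' markers and of free RNA (9.13% with NanoCa, 13.1% with mock) in the lower genes was not tested. Of the related genes of the Ifit cluster, Ifit1bl1 was called higher (log2 ratio 0.96, 62 UMIs with NanoCa and 26 with mock) and Ifit1bl2 was not (0.19).

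In TDLN T cells, where 2.17% of all genes were called higher and 7.78% lower, 1 of 10 receptor and signalling genes was higher. This was Irf7, at 113 CPM with NanoCa and 59.3 CPM with mock (log2 ratio 0.93). Ifnar1 (0.08), Ifnar2 (-0.14), Stat2 (0.33), Irf9 (0.28) and the receptor-bound kinases Jak1 (0.29) and Tyk2 (-0.07) were not called. Of the genes that join Isg15 to proteins, the activating enzyme Uba7 (0.25), the ligase Herc6 (0.50) and Trim25 (0.51) were not called and the conjugating enzyme Ube2l6 was lower (-0.60). Isg15 and its protease Usp18 were called higher, and none of the 4 measured conjugation genes was. The intervals of Trim25 (0.37 to 0.64), Herc6 (0.35 to 0.64) and Uba7 (0.10 to 0.40) lie above 0, however, so these genes missed the call on size alone. Of 27 interferon-gamma-induced genes 2 were higher (Gbp10, 0.82, and Gbp9, 0.62) and 3 lower, with a median of 0.00. Among the lower were Cxcl9 (-2.91, 26 UMIs with NanoCa and 159 with mock) and Serping1 (-2.28). Both were low in this class, at 0.86 (NanoCa) and 6.41 CPM (mock) for Cxcl9 and 0.72 (NanoCa) and 3.51 CPM (mock) for Serping1. The class also had less RNA of monocyte, macrophage and fibroblast markers with NanoCa, and its part in these lower genes was not tested. Irf1, a transcription factor that interferon gamma induces, was not called (0.15).

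B cells of the TDLN had a like pattern. There 11 of 38 other interferon-stimulated genes were called higher and 2 lower (median log2 ratio 0.41), and Irf7 had 131 CPM with NanoCa and 51.7 CPM with mock (log2 ratio 1.34). None of 23 interferon-gamma-induced genes was higher and 6 were lower, where 2.09% of all genes were higher and 7.41% lower. In TDLN NK cells none of 30 other interferon-stimulated genes was higher and 3 were lower, where 7.44% of all genes were higher and 5.76% lower. The weight of the single mock NK cell described above in this count was not tested for this class.

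Xist-low Ptprc-low cells gave different counts for the lists. In the TDLN, 7.30% of all genes were called higher and 6.63% lower in them. There 24 of 27 interferon-gamma-induced genes were lower with NanoCa and none was higher (median log2 ratio -1.92), while none of the 7 genes was called. In the tumour 21 of 26 were lower and 1 was higher (median -0.96), among the lower ones Iigp1 (-1.46) and Cxcl9 (-1.68). Socs1, an inhibitor of cytokine signalling, was the 1 higher (0.82). The 7 genes had a median of -0.05 in the same tumour cells, and 3 of 42 other interferon-stimulated genes were lower, among them Zbp1 (-0.79) and Gm4951 (-0.91). Ly6e (0.05), Daxx (0.07), Cmpk2 (-0.03), Cxcl10 (-0.40) and H2-Aa (-0.51) were not called there, nor were Irf3 (0.10), Ifnar1 (0.08) and Irf9 (-0.58) among the signalling genes. The intervals of Cxcl10 (-0.44 to -0.36), H2-Aa (-0.63 to -0.38) and Irf9 (-0.68 to -0.49) lie below 0. Those of Ly6e (0.04 to 0.06) and Irf3 (0.03 to 0.18) lie above it, so each of these genes missed the call on size alone. Of the conjugation genes none was called, with log2 ratios of -0.08 (Trim25), -0.35 (Ube2l6), -0.42 (Herc6) and -0.49 (Uba7). Their intervals lie below 0 too, at -0.16 to -0.0002 (Trim25), -0.40 to -0.30 (Ube2l6), -0.51 to -0.33 (Herc6) and -0.65 to -0.33 (Uba7). Ifit1bl2 was lower (-0.65, 60 UMIs with NanoCa and 85 with mock) and Ifit1bl1 was not called (-0.19).

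Ifnb1, the gene of interferon beta, was rare. In the tumour it had 55 UMIs in 10 cells with NanoCa and 48 UMIs in 32 cells with mock. The cells differed: 50 of the NanoCa UMIs lay in 8 Xist-low Ptprc-low cells, 23 of them in 1 cell, where the mock library had 8 UMIs in 8 such cells. Monocytes and macrophages had 4 UMIs in 1 cell with NanoCa and 34 UMIs in 20 cells with mock. In the TDLN it had 4 UMIs in 2 cells with NanoCa and 6 in 3 cells with mock. By the rule above Ifnb1 was higher in the Xist-low Ptprc-low cells of the tumour (log2 ratio 2.49), with those 23 of its 50 UMIs in 1 cell.

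Over 22 profiles of a class in a library, the genes whose levels were most like the mean of the 7 were Xaf1 (Pearson r 0.94), Cmpk2 (0.93), Oas1a (0.92), Ifi44 (0.90) and Cxcl10 (0.90), from 11473 genes outside the set. Each of the 7 had an r of 0.72 (Usp18) to 0.93 (Ifit1) with the mean of the other 6. The profiles share libraries and differ in depth, so these values are a description.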

How the data were processed

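The authors deposited raw UMI counts for every gene in each barcode, made with Cell Ranger 7.1.0, per the file headers. The sources used here name no build or annotation. Libraries were 10x Genomics 3′ v2, per the labels' protocols. A barcode was kept with 200 genes or more and 10% mitochondrial UMIs or less. The barcodes with the highest Scrublet scores (scanpy 1.11.5) were removed as doublets, 0.8% for every 1000 barcodes in the library. Both libraries of each tissue entered 1 clustering, with no integration and no interferon genes (2000 variable genes, 30 principal components, 15 neighbours, Leiden resolution 1, leidenalg 0.10.2). T cells were clustered again with 20 components. A name needed 3 markers enriched 1.5-fold. The rule for Xist-low Ptprc-low clusters (both genes under 20% of the median of named immune clusters), the mean log2 enrichment of at least 1 and the check for clusters with markers of 2 lineages were set after the clusters were seen. Classes with at least 100 cells in both libraries were compared.

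UMIs were summed per class and library. Levels have exact Poisson, shares exact Clopper-Pearson and ratios exact conditional binomial 95% intervals (scipy 1.17.1), which cover counting error alone. A gene at 0 was set to a floor of 3 counts. Thinning drew 1000 UMIs per cell. No test was run, as each group is 1 library. The scripts were tested on simulated counts. Alternatives included TMM factors (edgeR 4.0.16), free RNA subtraction and other filters, depths, clusterings and thresholds.

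All 7 genes are reported, and 1 gene of the lists is not reported here. Of the lists, Ifnb1, the receptor chains, Stat2, Irf9, Irf7, Uba7, Ube2l6, Herc6 and Cmpk2 are named, with the 3 highest and 2 lowest ratios per list in the largest class of each tissue. Outside that rule, the values of neutrophils, of tumour mature dendritic cells and of single clusters, Irf7 in B cells and Actb were chosen after their values were seen. The 7 genes, lists and comparisons were chosen with earlier results of these data known.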

Additional observations from a re-analysis of the deposited data

Results flagged for a closer look

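In NK cells the log2 ratios of NanoCa to mock had opposite signs in the 2 tissues, and both were called. Ifit1 had 1.14 in the tumour and -0.91 in the TDLN, a difference of 2.06. Usp18 had 0.90 in the tumour and -0.64 in the TDLN, a difference of 1.54. The differences were not tested, since each group is 1 library. In the TDLN 1 mock cell held 169 of the 617 UMIs of the 7 genes in its class; without the top cell of each library its ratios were 0.36 (Ifit1) and -0.28 (Usp18), and neither was called. On the tumour side, with cells thinned to 1000 UMIs the ratios were 0.72 (Ifit1) and 1.48 (Usp18) and neither was called, and Ifit1 (1.45) was not called without the top 1% of cells.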

How the results depend on the processing

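No paired analysis was possible because each group is 1 library with a single replicate number, and for the same reason no replicate could be left out. Of 969 recomputed log2 ratios (57 ratios under 17 settings), 864 kept their call or lack of one, 81 lost the call and 14 gained one. The other 10, called before or after the change, turned round. Ratios without a call in either setting were counted as kept whatever their direction, and many of the 57 had no call to lose. Without the 1 cell with the most UMIs of the 7 genes, an alternative added after seeing the data, tumour B cell Isg15 stood at 0.40 and TDLN NK cell Ifit1 at 0.36. Without the top 1% of cells they stood at 0.33 and 0.41. Tumour B cell Isg15 was also turned round with all variable genes in the clustering (0.37), without doublet removal (0.49) and with thinned cells (0.25). Thinning also turned round TDLN mature dendritic cell Isg15 (-0.49), TDLN NK cell Ifit1 (0.22) and Rsad2 (0.047); it leaves fewer UMIs.

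The 7 genes gave 13 higher and 4 lower calls in the TDLN and 7 higher and 1 lower in the tumour. Of all genes, 2.09 to 7.44% per class were called higher and 4.33 to 7.78% lower in the TDLN. In the tumour these shares were 5.30 to 7.63% higher and 2.34 to 3.83% lower. The shares are those of the main setting and are not given for the alternatives below. TDLN higher calls were 8 at a minimum of 200 UMIs and 7 with thinned cells or without the top 1% of cells. TDLN lower calls were 0 at 200 UMIs, thinned or without the 1 cell, 1 without the top 1% or without shared barcodes (also added after seeing the data), and 2 at 2-fold, without doublet removal, with all variable genes or with free RNA subtracted. Tumour higher calls were 2 at 200 UMIs, at 2-fold or thinned, and 4 with all variable genes, without the top 1% or with the same cluster makeup. Tumour lower calls were 4 at 10 UMIs, 2 at a lower fold or without doublet removal, and 0 with all variable genes, thinned or without the 1 cell.

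The share of cells with 3 or more of the genes depends on depth and on the count asked for. Unthinned, at 2000 UMIs, with 2 or more, with 4 or more and without Isg15 it was 9.05, 3.48, 4.39, 0.819 and 0.880% in tumour NanoCa, 10.9, 3.30, 4.27, 0.897 and 0.969% in tumour mock, 4.35, 1.90, 2.27, 0.300 and 0.372% in TDLN NanoCa, and 5.36, 0.829, 1.35, 0.158 and 0.169% in TDLN mock. In TDLN T cells it was 3.67, 2.04, 2.32, 0.242 and 0.354% with NanoCa and, for the first 3 settings, 0.452, 0.310 and 0.516% with mock. NanoCa was above mock in TDLN T cells in each of these, whereas the whole-library order of the TDLN turned round unthinned. In the tumour the whole-library order turned round at 2000 UMIs and with 2 or more genes.

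The share held by the top cells was, for 5% of cells, thinned cells, the most numerous immune class over both libraries of a tissue (monocytes and macrophages in the tumour, T cells in the TDLN) and no doublet removal, 63.2, 32.1, 20.3 and 29.2% in tumour NanoCa, 60.1, 33.5, 17.5 and 25.5% in tumour mock, and 74.2, 30.9, 26.3 and 46.3% in TDLN NanoCa. In TDLN mock it was 75.9, 33.6 and 26.8% for the first 3. Depth limits Rsad2 and Ifit3b most, which had under 50 UMIs in several small classes.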
